A study of Mus musculus with 10 samples.

Results

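The carnitine system was examined as 10 genes fixed by symbol in the count table: Cpt1a, Cpt1b, Cpt1c, Cpt2, Crat, Crot, Slc25a20, Slc22a5, Bbox1 and Tmlhe, of 24062 genes in all. The series describes male mouse kidney, and calls the KO and WT kidneys adult; no age was found in the labels for the strain animals. Of the 10 libraries, 4 were from C57BL/6N animals labelled wild type for Ehhadh (called WT here), 4 from C57BL/6N animals labelled Ehhadh knockout (KO), and 1 each from DBA_2J and 129S2_SvPasCrl animals labelled wild type. Ehhadh encodes the peroxisomal bifunctional enzyme of β-oxidation. How the KO allele was made and whether KO and WT animals were littermates are not given in the sources used here. All 10 members had a row, 9 had reads and passed the filter on low counts, and Tmlhe was at 0 in every library.

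Carnitine carries acyl groups across membranes that acyl-CoA cannot cross. CPT1 at the outer mitochondrial membrane moves a long-chain acyl group from CoA to carnitine, the carrier encoded by Slc25a20 exchanges the acylcarnitine for free carnitine, and CPT2 inside rebuilds acyl-CoA for β-oxidation. The peroxisomal enzyme encoded by Crot and the acetyltransferase encoded by Crat, which acts in mitochondria and peroxisomes, transfer medium-chain and short-chain acyl groups, respectively, such as the products of peroxisomal β-oxidation, to carnitine for export. In the kidney the transporter OCTN2, encoded by Slc22a5, reclaims filtered carnitine in the proximal tubule, and the enzymes encoded by Tmlhe and Bbox1 make the first and last steps of carnitine synthesis from trimethyllysine.

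Total gene counts ran from 41.49 to 52.3 M in KO and from 19.79 to 35.99 M in WT, with 57.25 M for DBA_2J and 51.19 M for 129S2_SvPasCrl, so depth differed with genotype. Ehhadh, read to check the labels, gave 258 ± 64.0 CPM in KO against 2470 ± 622 CPM for WT (SD, n = 4 per genotype), with 795 CPM in DBA_2J and 788 CPM in 129S2_SvPasCrl. CPM is the count of a gene per M counts of its library, after TMM scaling over the 10 libraries. All 15 proximal tubule markers were read, with summed levels of 13180 to 16040 CPM in KO, 15760 to 16890 CPM in WT, 18430 CPM in DBA_2J and 18600 CPM in 129S2_SvPasCrl. Of those markers 5 fell in KO and none rose, with the test described below, by which 728 of all 15547 tested genes fell and 982 rose (11.0% called in all). In whole-kidney RNA, fewer cells of a type and less RNA per cell cannot be told apart. Summed collecting duct markers were 364 to 408 CPM in KO and 532 to 855 CPM in WT, and summed tubular injury markers 951 to 1801 CPM in KO and 757 to 1087 CPM in WT. All 6 collecting duct markers fell in KO, and 6 of 8 injury markers rose. What part these differences have in the levels of the carnitine genes was not tested.

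The promoters of Cpt2, Slc25a20 and Slc22a5 are shown because the first and second were the members furthest below WT in the other strains, and the third was the most variable among KO animals. They are C57BL/6J reference sequences from RefSeq (GRCm38.p6, the same build as mm10), 250 bases before to 50 after the start of the gene, and 7 of the 10 members had one. The RefSeq start of Slc25a20 lies downstream of the first base of that gene in the count annotation, so its window is set from the RefSeq start and reaches further into the counted exon than 50 bases. Capitals mark the GC box GGGCGG on either strand.
Cpt2 promoter, chr4:107923540-107923839, minus strand: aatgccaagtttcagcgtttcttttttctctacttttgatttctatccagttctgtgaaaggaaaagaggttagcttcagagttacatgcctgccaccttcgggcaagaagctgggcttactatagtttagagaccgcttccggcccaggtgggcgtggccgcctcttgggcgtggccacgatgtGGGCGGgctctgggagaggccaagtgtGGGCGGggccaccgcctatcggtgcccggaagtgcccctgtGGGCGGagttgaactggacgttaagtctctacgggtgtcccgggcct
Slc25a20 promoter, chr9:108661886-108662185, plus strand: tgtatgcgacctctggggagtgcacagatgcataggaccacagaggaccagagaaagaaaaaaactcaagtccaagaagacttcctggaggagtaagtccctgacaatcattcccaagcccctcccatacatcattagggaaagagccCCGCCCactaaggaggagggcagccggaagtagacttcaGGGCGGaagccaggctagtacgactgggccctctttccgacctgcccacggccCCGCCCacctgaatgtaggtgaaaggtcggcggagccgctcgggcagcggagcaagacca
Slc22a5 promoter, chr11:53891654-53891953, minus strand: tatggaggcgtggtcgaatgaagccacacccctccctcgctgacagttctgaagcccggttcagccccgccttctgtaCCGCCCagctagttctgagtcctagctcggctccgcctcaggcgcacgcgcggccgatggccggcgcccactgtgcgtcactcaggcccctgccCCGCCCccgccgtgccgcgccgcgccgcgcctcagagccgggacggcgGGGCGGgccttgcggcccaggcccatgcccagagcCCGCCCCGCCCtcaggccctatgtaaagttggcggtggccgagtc
The GC box was in 6 of the 7 member promoters, all but that of Bbox1, and in 35.7% of 32851 mouse promoters of the same length. The Cpt2 and Slc25a20 windows held 3 copies each and the Slc22a5 window 5, of which 2 overlap by 1 base. The nuclear receptor core AGGTCA was in the windows of Cpt1a and Cpt1c (16.3% of all promoters). The repeat of AGGNCA after 1 further base, on either strand, the form bound by PPARα with its partner RXR, was in none of the 7 (0.381% of all). Strain sequences were not read, and these matches describe letters, not sites in use.

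The members spanned a wide range of levels per length in WT kidney. RPKM is CPM per kilobase of exon. Crot was highest at 248 ± 32.5 RPKM (SD, n = 4), followed by Cpt2 at 220 ± 9.49, and their ranges over WT libraries overlapped. Cpt1a at 169 ± 8.35 RPKM and Slc22a5 at 122 ± 17.7 RPKM came next, each separate from its neighbours in that order. Crat read 68.7 ± 4.01 RPKM and Slc25a20 59.9 ± 6.68 RPKM, with overlapping ranges. Cpt1b stood apart at 20.3 ± 1.72 RPKM. Bbox1 at 0.977 ± 0.234 RPKM and Cpt1c at 0.963 ± 0.180 RPKM overlapped at the bottom. Transcript of the enzyme that completes carnitine synthesis was thus low in these kidneys, while that of the carnitine importer was more than 100 RPKM in each WT library, from 110 to 148 RPKM.

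**Figure D1:**
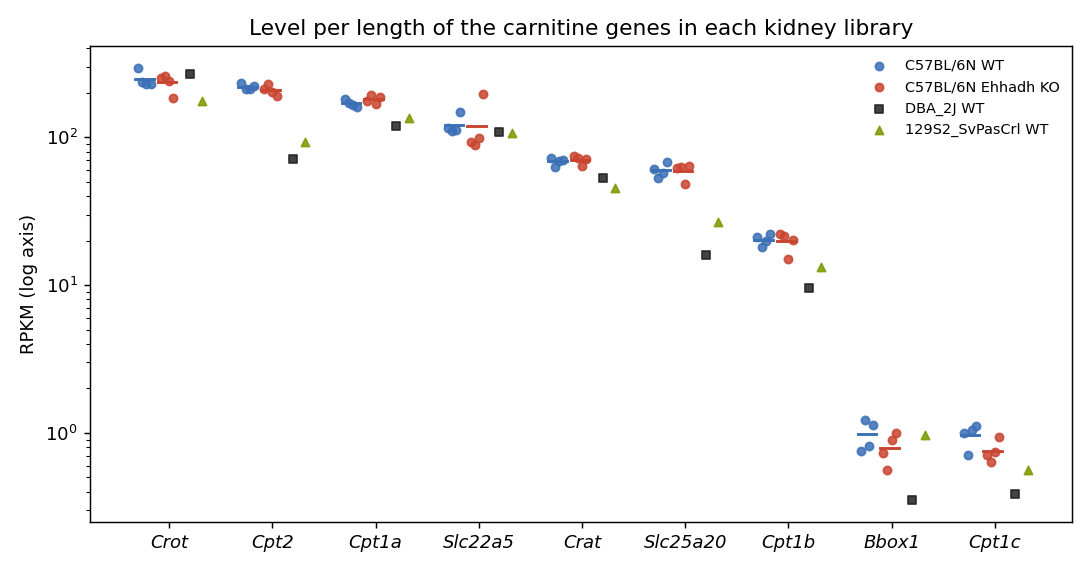
Level per length (RPKM, log axis) of the 9 members with reads in each of the 10 libraries, ordered by the WT mean; lines are means of the 4 KO or 4 WT libraries. Crot, Cpt2 and Cpt1a lie highest and Bbox1 and Cpt1c near 1 RPKM, with KO and WT points overlapping for every gene.

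The question of the main comparison was whether loss of Ehhadh changes these transcripts. No member passed the test and no member had KO and WT libraries apart. Of 9 tested members 0 were called (edgeR quasi-likelihood test, Benjamini-Hochberg adjustment over 15547 genes, threshold 0.05), 0 had an unadjusted p under 0.05, and DESeq2 called 0, where 11.0% of all tested genes were called in edgeR. No member (0 of 9) had its genotypes fully apart, which was so for 17.8% of all tested genes. The median log2 fold change of the 9 was −0.04, and that of all tested genes −0.01. Log2 fold changes come from the fit of the 8 C57BL/6N libraries, while the CPM beside them use the scaling over 10.

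The outer membrane enzymes were taken first. Cpt1a (chr19:3323301-3385733, plus strand, 19 exon entries), the form that predominates in liver and kidney, read 752, 831, 720 and 810 CPM in KO replicates 1 to 4 and 777, 732, 714 and 692 CPM in WT replicates 1 to 4. The groups interleaved, with the highest library in KO and the lowest in WT. Its log2 fold change was 0.09 (SE 0.07; adjusted p = 0.403 in edgeR), and the 95% interval of −0.05 to 0.24 corresponds to a KO level of 0.966 to 1.18 times WT. Cpt1b (chr15:89416405-89425862, minus strand, 19 exon entries), the muscle and brown fat form, read 64.1, 62.6, 43.2 and 58.4 CPM in KO and 61.1, 52.8, 57.2 and 64.3 CPM in WT. KO replicate 3 was the lowest of the 8, and the other KO libraries lay within the WT range. The log2 fold change of Cpt1b was −0.04 (SE 0.12, 95% interval −0.30 to 0.21; adjusted p = 0.859 in edgeR). Of the 2894 exon bases of Cpt1b, 2744 (94.8%) also belong to ChkbCpt1b, a readthrough entry with the upstream choline kinase gene Chkb. A read on shared bases was counted for both, so the counts of Cpt1b include any readthrough RNA. The ChkbCpt1b entry averaged 137 ± 17.2 CPM over KO animals, against 131.5 ± 9.83 CPM over WT animals (SD, n = 4 per genotype). In each library its count was close to those of Cpt1b and Chkb added together. In KO replicate 1, for example, it was 7729, beside 3251 for Cpt1b and 4530 for Chkb. The entry thus largely recounts the same reads and does not give a level of readthrough RNA.

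Cpt1c (chr7:44959372-44974851, minus strand, 38 exon entries), known mainly as a neuronal form with little transferase activity, was read by 55 to 137 counts per C57BL/6N library. It gave 1.97, 1.76, 2.07 and 2.60 CPM in KO and 2.79, 1.96, 2.91 and 3.10 CPM in WT. WT replicate 2 lay among the KO values, so the groups overlapped although 3 of 4 WT libraries lay above all KO libraries. Its log2 fold change of −0.35 (SE 0.20) was the largest in size of the 9 and had the widest interval but those of Bbox1 and Slc22a5, from −0.79 to 0.09 (adjusted p = 0.296 in edgeR). Neuron markers were near 0 apart from Uchl1, which rose in KO (9.45 ± 1.14 against 7.13 ± 0.638 CPM; adjusted p = 0.0493 in edgeR), and the 8 markers summed to 9.90 to 11.8 CPM in KO and 7.56 to 9.27 CPM in WT. That sum was mostly Uchl1. The other 2 tested markers were not called and went both ways. Stmn2 was lower in KO (0.558 against 0.809 CPM in WT) and Nefl higher (0.464 against 0.386 CPM). On the RPKM scale Cpt1a made up 89.9 ± 1.24% of the 3 CPT1 transcripts in KO and 88.8 ± 1.10% in WT, Cpt1b 9.76 ± 1.27% and 10.7 ± 1.01%, and Cpt1c 0.375 ± 0.0653% and 0.506 ± 0.100% (SD, n = 4 each). These shares were not tested.

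The carrier and the inner enzyme varied little with genotype. Cpt2 (chr4:107903982-107923589, minus strand, 5 exon entries) read 498, 542, 473 and 445 CPM in KO and 546, 500.5, 497.5 and 520 CPM in WT. KO replicates 3 and 4 were below the WT range and KO replicates 1 and 2 inside it. For Cpt2 the log2 fold change was −0.08 (SE 0.07, 95% interval −0.23 to 0.08; adjusted p = 0.55 in edgeR). Slc25a20 (chr9:108662098-108684641, plus strand, 9 exon entries) read 110, 112.5, 85.9 and 114 CPM in KO and 108, 94.0, 102 and 122 CPM in WT. KO replicate 3 was the lowest of the 8 libraries, apart from the other KO replicates but near WT replicate 2, and the other 7 ran from 94.0 to 122 CPM. Its log2 fold change was −0.02 (SE 0.10, 95% interval −0.24 to 0.21; adjusted p = 0.942 in edgeR), and the sign turned without KO replicate 3 (0.07) or WT replicate 4 (0.055) and with library totals alone (0.0052).

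The medium-chain and short-chain transferases, encoded by Crot and Crat, take up products of the peroxisomal pathway to which Ehhadh belongs. Crot (chr5:8966048-8997146, minus strand, 18 exon entries) read 710, 734, 672 and 521 CPM in KO and 831, 667, 646 and 638 CPM in WT. KO replicate 4 was the lowest and WT replicate 1 the highest of the 8, and the other 6 lay between 638 and 734 CPM. Its log2 fold change was −0.08 (SE 0.12, 95% interval −0.33 to 0.18; adjusted p = 0.732 in edgeR). The sign turned when KO replicate 4 (0.0224) or WT replicate 1 (0.0255) was left out. Crat (chr2:30400476-30415748, minus strand, 14 exon entries) read 328, 319, 281 and 312 CPM in KO and 320, 278, 303 and 307 CPM in WT. The groups covered nearly the same range, and the log2 fold change was 0.04 (SE 0.07, 95% interval −0.11 to 0.19; adjusted p = 0.772 in edgeR). Crat shares 54 of its 4393 exon bases with Dolpp1. Per length, Crot was 3.34 ± 0.504 times Crat in KO and 3.61 ± 0.379 times in WT (SD, n = 4 each; not tested).

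Slc22a5 (chr11:53864542-53891703, minus strand, 10 exon entries) was the member on which 1 animal decided the comparison. It read 290, 277, 309 and 610 CPM in KO and 360, 342, 350 and 459 CPM in WT. KO replicates 1 to 3 lay below every WT library, and KO replicate 4 lay above all of them. With all 8 libraries the log2 fold change was −0.03 (SE 0.22, 95% interval −0.51 to 0.46; adjusted p = 0.959 in edgeR), and the coefficient of variation among KO libraries was 42.9%, against 14.5% in WT. Without KO replicate 4 it was −0.37 (SE 0.10; adjusted p = 0.0393 in edgeR), the only call of a member in any fit that left out 1 library. Its adjacent relatives on chromosome 11 also read highest of the KO libraries in KO replicate 4. Slc22a4, the OCTN1 gene, read 44.4, 39.6, 55.6 and 69.6 CPM in KO and 64.1, 73.4, 67.6 and 70.6 CPM in WT (log2 fold change −0.40, SE 0.14; adjusted p = 0.0986 in edgeR). Slc22a21, which encodes a further mouse carnitine transporter, read 8.38, 9.51, 9.36 and 12.3 CPM in KO and 11.0, 8.95, 11.4 and 12.2 CPM in WT. P4ha2, a collagen hydroxylase gene further along chromosome 11, did not share this: it read 48.0, 45.7, 47.3 and 43.9 CPM in KO, lowest in replicate 4, and rose against WT (30.8 ± 1.33 CPM, SD, n = 4; log2 fold change 0.59, SE 0.06; adjusted p = 0.000214 in edgeR). KO replicate 4 also held the highest sum of tubular injury markers (1801 CPM, other KO libraries 951 to 1103) and the highest proximal tubule sum in KO (16040 CPM, others 13180 to 15050). The injury sum is mostly Spp1 (672 to 1324 CPM in KO) and Clu (173.5 to 345 CPM in KO, not called), so it says little about the other injury markers. The part of these sums in the Slc22a5 level of KO replicate 4 was not tested.

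**Figure D2:**
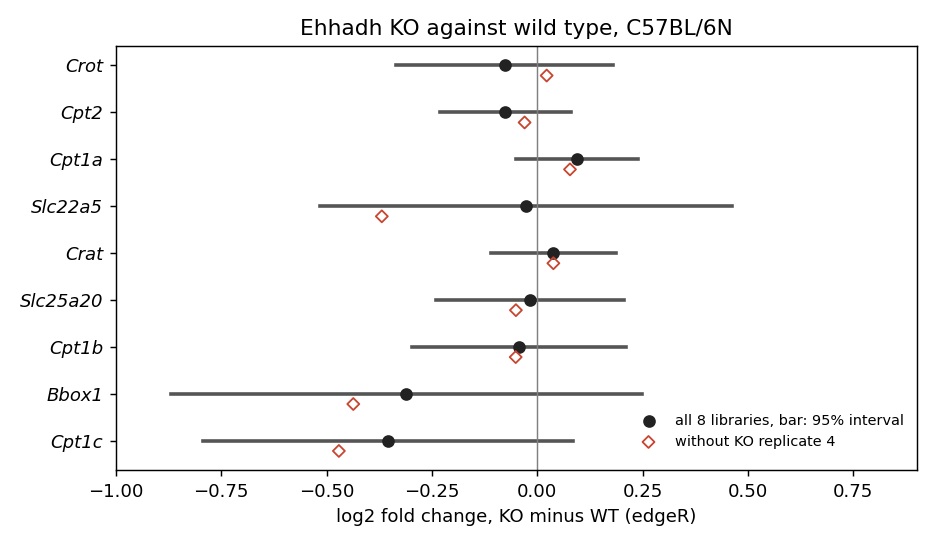
Log2 fold change of KO against WT for the 9 tested members, with points for the fit of all 8 C57BL/6N libraries, bars for its 95% interval, and open diamonds for the fit without KO replicate 4. Every bar spans 0, and Slc22a5 moves from −0.03 to −0.37 when KO replicate 4 is left out.

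Carnitine synthesis was represented by Bbox1 alone. Bbox1 (chr2:110265083-110305725, minus strand, 7 exon entries) was read by 24 to 85 counts per C57BL/6N library, at 1.18, 0.905, 1.44 and 1.62 CPM in KO and 1.22, 1.99, 1.32 and 1.83 CPM in WT. The groups overlapped widely. The fitted log2 fold change was −0.31 (SE 0.25, 95% interval −0.87 to 0.25; adjusted p = 0.489 in edgeR), so differences from 0.547 to 1.19 times WT lie inside the interval. The 0 of Tmlhe is not a measured level. The annotation places it only on an unplaced scaffold of chromosome X (8 exon entries, 2255 bases), with Vamp7, Spry3 and Zf12, and all 4 were at 0. All 8 genes annotated only on unplaced scaffolds were at 0 in all 10 libraries, including Vamp7, a vesicle fusion gene of most cells. No value for Tmlhe can therefore be given.

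The titles of the C57BL/6N samples have 2 forms, with a leading E for KO and WT replicates 3 and 4 and without it for replicates 1 and 2 of each genotype; what the form marks is not given in the labels. Between forms the KO minus WT difference in log2 CPM went from −0.27 with E to 0.16 without it for Cpt1b, from −0.18 to 0.14 for Slc25a20 and from 0.12 to −0.31 for Slc22a5. For Bbox1, at few counts, it went from −0.02 with E to −0.57 without it, and for Crat from −0.04 to 0.12. For Cpt1a it was 0.12 and 0.07, for Cpt2 −0.15 and −0.01, for Crot −0.12 and −0.04, and for Cpt1c −0.36 and −0.32. The test of form by genotype called 0 genes in edgeR, members included (DESeq2 was not run on it), while 1004 of 15547 genes had an unadjusted p under 0.05, and the lowest interaction p of a member was 0.0505, for Cpt1b.

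The DBA_2J and 129S2_SvPasCrl libraries read below WT for most members. Each strain has 1 library, so there is no test and no replicate error for it. In DBA_2J 8 of the 9 members lay below all 4 WT libraries, where 37.3% of all tested genes did, and Crot lay within the WT range. In 129S2_SvPasCrl 8 of 9 lay below, where 31.9% of all tested genes did, and Bbox1 lay within the range. A log2 difference of −1 or lower from the WT mean was reached by 5 members in DBA_2J (8.23% of all tested genes) and 2 in 129S2_SvPasCrl (5.97%), and no member was higher by as much. The median difference of the 9 was −1.08 in DBA_2J and −0.59 in 129S2_SvPasCrl, against −0.02 and 0.01 over all tested genes. These strain differences use the same WT libraries as the KO comparison.

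The carrier and the inner enzyme were furthest below WT among the well-read members. Slc25a20 read 28.6 CPM in DBA_2J and 47.3 CPM in 129S2_SvPasCrl, 26.8% and 44.3% of the WT mean of 107 CPM (log2 differences −1.89 and −1.17). Cpt2 read 168 and 219 CPM, 32.6% and 42.4% of the WT mean of 516 CPM (−1.62 and −1.24). For both genes the 8 C57BL/6N libraries, KO and WT alike, lay above the other strains, by more than their whole spread. These are the promoters printed above, which are on chromosomes 9 and 4. The ratio of Cpt2 to Cpt1a per length was 0.600 in DBA_2J and 0.691 in 129S2_SvPasCrl, against 1.30 ± 0.0547 in WT and 1.15 ± 0.0993 in KO (SD, n = 4 each). The KO ratios (1.005 to 1.212) all lay below those of WT (1.251 to 1.376), and this difference was not tested.

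Cpt1b read 27.7 CPM in DBA_2J and 38.3 CPM in 129S2_SvPasCrl, 47.0% and 65.1% of the WT mean (log2 differences −1.08 and −0.61). The readthrough entry ChkbCpt1b, which holds most exon bases of Cpt1b, read 65.7 and 85.3 CPM against 131.5 ± 9.83 CPM in WT. The upstream gene Chkb read 38.4 and 47.3 CPM against 73.7 ± 8.10 CPM (SD, n = 4). Since the ChkbCpt1b entry largely recounts the reads of Cpt1b and Chkb, it is no separate measure. Cpt1b RNA and readthrough RNA cannot be told apart in these strain values. Cpt1a was closer to WT, at 513 and 580 CPM or 70.5% and 79.6% of the WT mean (−0.50 and −0.33), and both values lay below all 8 C57BL/6N libraries. Cpt1c read 1.07 CPM from 58 counts and 1.56 CPM from 79 counts (−1.27 and −0.75). The summed neuron markers were also below the C57BL/6N libraries, at 1.27 and 2.29 CPM. That was mostly Uchl1 (0.405 and 0.752 CPM, against 7.13 ± 0.638 CPM in WT). Syt1, another marker of the list, was higher in both strains (0.681 and 0.574 CPM, against at most 0.316 CPM in WT and 0.342 CPM in KO). Any part of neuron RNA in the Cpt1c values was not tested. Crat read 232 and 200 CPM (−0.38 and −0.59), again below all 8 C57BL/6N libraries in both strains. Crot differed between the strains, at 749 CPM in DBA_2J, inside the WT range (0.11), and 496 CPM in 129S2_SvPasCrl, below every C57BL/6N library (−0.48). Slc22a5 was near WT in both, at 335 and 330 CPM (−0.16 and −0.19), just under the lowest WT library at 342 CPM and inside the KO range. Bbox1 also differed between the strains, with 0.571 CPM from 31 counts in DBA_2J (−1.38) and 1.56 CPM from 79 counts in 129S2_SvPasCrl (0.0047).

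**Figure D3:**
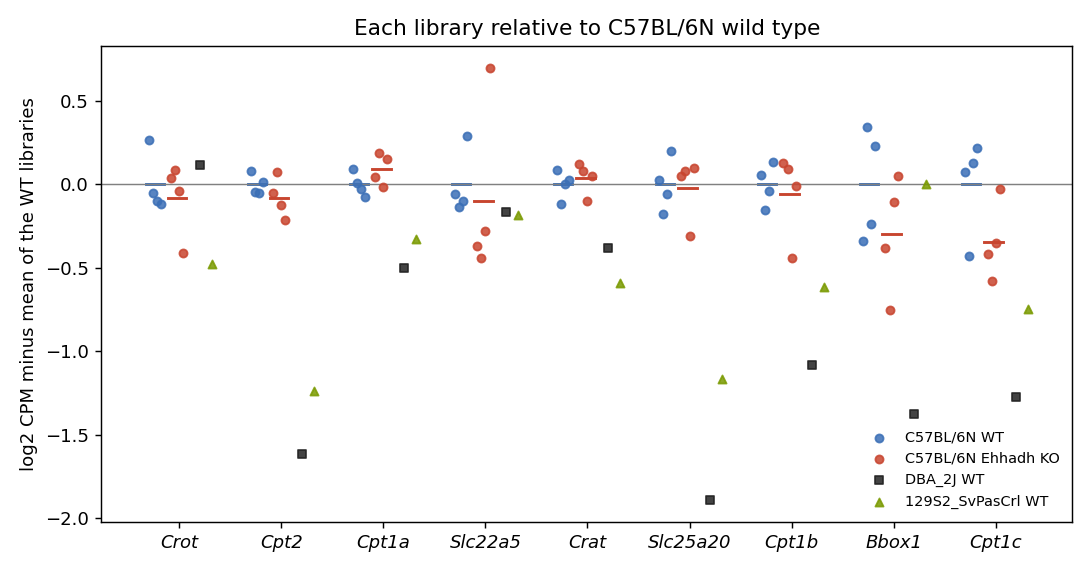
Log2 CPM (prior count 2) of each library minus the mean of the 4 WT libraries, for the 9 members with reads; lines are the group means. KO points lie on both sides of 0 for most genes, from −0.75 (Bbox1, KO replicate 2) to 0.70 (Slc22a5, KO replicate 4), all 4 KO points of Cpt1c lie below 0 (−0.58 to −0.03), and DBA_2J and 129S2_SvPasCrl read below 0 for most genes and lowest for Slc25a20 and Cpt2.

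Markers of fat tissue moved with the strains. Brown fat is a tissue rich in Cpt1b. The 7 adipocyte markers (Adipoq, Plin1, Cidec, Lep, Ucp1, Cfd and Retn) were all read, and summed to 19.9 CPM in DBA_2J and 18.6 CPM in 129S2_SvPasCrl, below the 43.7 to 144 CPM of KO and 31.9 to 136 CPM of WT. None was called in KO against WT. Ucp1, the brown fat uncoupling protein gene, read 3.33 CPM in DBA_2J and 1.84 CPM in 129S2_SvPasCrl, 3.77 to 8.13 CPM in KO and 5.46 to 17.6 CPM in WT. In order of the sum, at 31.9, 44.8, 102.5 and 136 CPM, the WT libraries read 52.8, 57.2, 61.1 and 64.3 CPM for Cpt1b and 94.0, 102, 108 and 122 CPM for Slc25a20. Both genes had the same order as the sum in WT. The KO libraries did not follow that order, and KO replicate 3, with a sum of 62.5 CPM, read lowest for both. Cpt2 read 500.5, 497.5, 546 and 520 CPM in the same order of WT libraries. Slc22a5 also rose in that order in WT, at 342, 350, 360 and 459 CPM. In the strains Slc22a5 was near WT, at 335 CPM in DBA_2J and 330 CPM in 129S2_SvPasCrl. Striated muscle markers were near 0, with 8 genes summing to 0.914 to 1.77 CPM over all 10 libraries and Myh4 at 0. The part of adipocyte RNA in the strain difference was not tested.

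**Figure D4:**
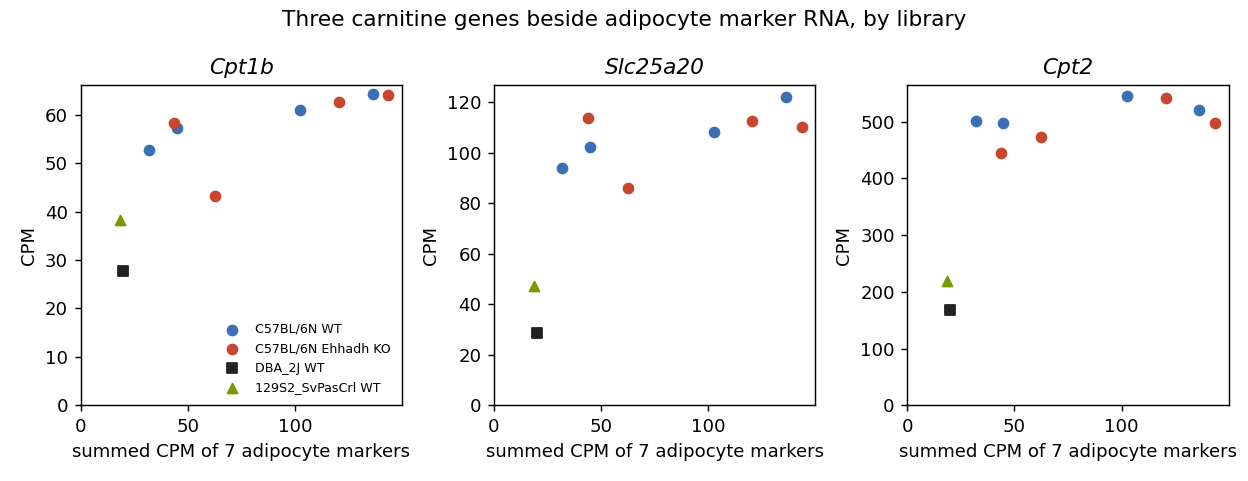
CPM of Cpt1b, Slc25a20 and Cpt2 against the summed CPM of 7 adipocyte markers, with 1 point for each of the 10 libraries. The DBA_2J and 129S2_SvPasCrl libraries have the lowest sums (19.9 and 18.6 CPM) and the lowest values of all 3 genes, and among the 4 WT libraries Cpt1b (52.8 to 64.3 CPM) and Slc25a20 (94.0 to 122 CPM) are in the same order as the sum, while Cpt2 is not. Slc22a5, not drawn, has the same WT order as the sum and is near WT in both strains.

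Neighbouring steps of fatty acid handling were compared as lists. Of 61 listed genes in 6 lists, 60 were tested in KO against WT, 12 were called, all of them lower, and 48 did not pass. The other genes of carnitine synthesis and transport gave 0 calls of 8 tested (median log2 fold change −0.13). The smallest p-values in it belonged to Slc6a14, an amino acid and carnitine transporter at 0.227 ± 0.0453 CPM in KO against 0.544 ± 0.254 CPM for WT (adjusted p = 0.0614 in edgeR), and to Slc25a29, a mitochondrial carrier of basic amino acids, at 3.95 ± 0.316 against 5.14 ± 0.556 CPM (adjusted p = 0.0885). For both genes the KO libraries lay below every WT library. These were 2 of the 8 tested, and 17.8% of all tested genes had genotypes fully apart in either direction. Slc6a14 had at most 33 counts in any library. Aldh9a1, the dehydrogenase of carnitine synthesis, read 627 ± 46.8 against 668 ± 34.0 CPM (SD, n = 4 per genotype; adjusted p = 0.42 in edgeR), and Pdzk1, the scaffold that binds OCTN2, 1134 ± 200.5 against 1211 ± 129 CPM (adjusted p = 0.652). Slc22a16 had no reads. The transcription regulators gave 0 calls of 8 (median −0.0044). Their smallest p-values were those of Pparg (3.56 ± 0.928 against 2.55 ± 1.25 CPM; adjusted p = 0.32 in edgeR) and Esrra (144 ± 14.7 against 158 ± 18.0 CPM; adjusted p = 0.361). Ppara, which encodes the receptor that drives many of these genes in liver, averaged 221 ± 35.3 CPM over KO animals, against 211.5 ± 33.8 CPM over WT animals.

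Genes of fatty acid uptake and acyl-CoA formation fell in 4 of 10 (median −0.25). Cd36, a fatty acid receptor, went from 608 ± 69.8 CPM in WT to 383 ± 15.4 in KO (log2 fold change −0.67, SE 0.08; adjusted p = 0.000589 in edgeR), and Slc27a2, a very long chain acyl-CoA synthetase, from 5272 ± 253 to 4239 ± 229 CPM (−0.32, SE 0.06; adjusted p = 0.0108). Acsl3 (−0.41) and Slc27a1 (−0.26) also fell. The call of Acsl3 was lost without WT replicate 3 (adjusted p = 0.0567 in edgeR), and that of Slc27a1 held without WT replicate 2 alone (0.0543 to 0.0841 without any other library). Acsl1, a major long-chain acyl-CoA synthetase, did not pass (389.5 ± 63.8 CPM for KO, 458 ± 112 CPM for WT; adjusted p = 0.411 in edgeR). In the malonyl-CoA list, which holds the source of the CPT1 inhibitor, Acacb fell (45.0 ± 5.18 to 32.8 ± 4.45 CPM; adjusted p = 0.0216 in edgeR) and the other 8 did not pass (median −0.05). Leaving out any of KO replicates 1 and 3 and WT replicates 1, 3 and 4 ended that call (0.0502 to 0.0579).

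Enzymes downstream and upstream of the shuttle fell in part. Of 14 mitochondrial β-oxidation genes 3 fell (median −0.11), Etfb (646 ± 57.7 to 508 ± 12.6 CPM; log2 fold change −0.35, SE 0.07; adjusted p = 0.00972 in edgeR), Etfa (−0.24) and Hadh (−0.22). Leaving out KO replicate 1, WT replicate 1 or WT replicate 2 ended the call of Etfa (edgeR adjusted p from 0.053 to 0.0664), and that of Hadh held without KO replicate 4 or WT replicate 4 alone (0.0583 to 0.0879 in the others). Of 11 genes of peroxisomal import and chain shortening other than Ehhadh, 4 fell (median −0.31): Acox3 (346 ± 16.7 to 280.1 ± 3.45 CPM; −0.31, SE 0.05; adjusted p = 0.00464 in edgeR), Acaa1a (−0.38), Acaa1b (−0.46) and Scp2 (−0.22). The call of Acaa1a was lost without KO replicate 2 (0.0507 by edgeR after adjustment). Acaa1b kept its call without WT replicates 3 or 4 alone (0.0548 to 0.0834 in the others) and Scp2 without KO replicate 4 or WT replicate 2 alone (0.0519 to 0.0866). These are counts in lists picked with earlier results known, beside 11.0% called over all tested genes, and whether the carnitine genes differ from them was not tested.

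The same lists were read in the strain libraries, with no test. Mitochondrial β-oxidation had a median log2 difference from WT of −0.66 in DBA_2J and −0.63 in 129S2_SvPasCrl, and peroxisomal chain shortening −0.64 and −0.66. Fatty acid uptake and acyl-CoA formation had medians of −0.42 and −0.50, and the malonyl-CoA list −0.40 and −0.14. Members of the uptake list went both ways. Acsl1 read 99.6 CPM in DBA_2J and 119 CPM in 129S2_SvPasCrl, against 347 to 597 CPM in WT. Cd36 read 1040 and 839 CPM, above the 526 to 670 CPM of WT. Acaa2, the last enzyme of the mitochondrial spiral, read 57.6 and 259 CPM, against a WT mean of 507 ± 56.0 CPM (SD, n = 4). The other carnitine genes had medians near 0 (0.18 and 0.01), with members on both sides. Pdzk1 was higher in both strains at 1872 and 1903 CPM, as was Slc22a4 at 91.8 and 141 CPM (64.1 to 73.4 CPM in WT). Lower in both were Aldh9a1 at 424 and 602 CPM (639 to 717 CPM in WT) and Slc6a14 at 0.0737 and 0.0989 CPM (0.356 to 0.905 CPM in WT). Slc6a14 was near the floor, with at most 33 counts in any of the 10 libraries. The transcription regulators had medians of 0.22 and 0.08. Ppara read 130.5 CPM in DBA_2J and 167.5 CPM in 129S2_SvPasCrl, below its WT mean of 211.5 ± 33.8 CPM.

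**Figure D5:**
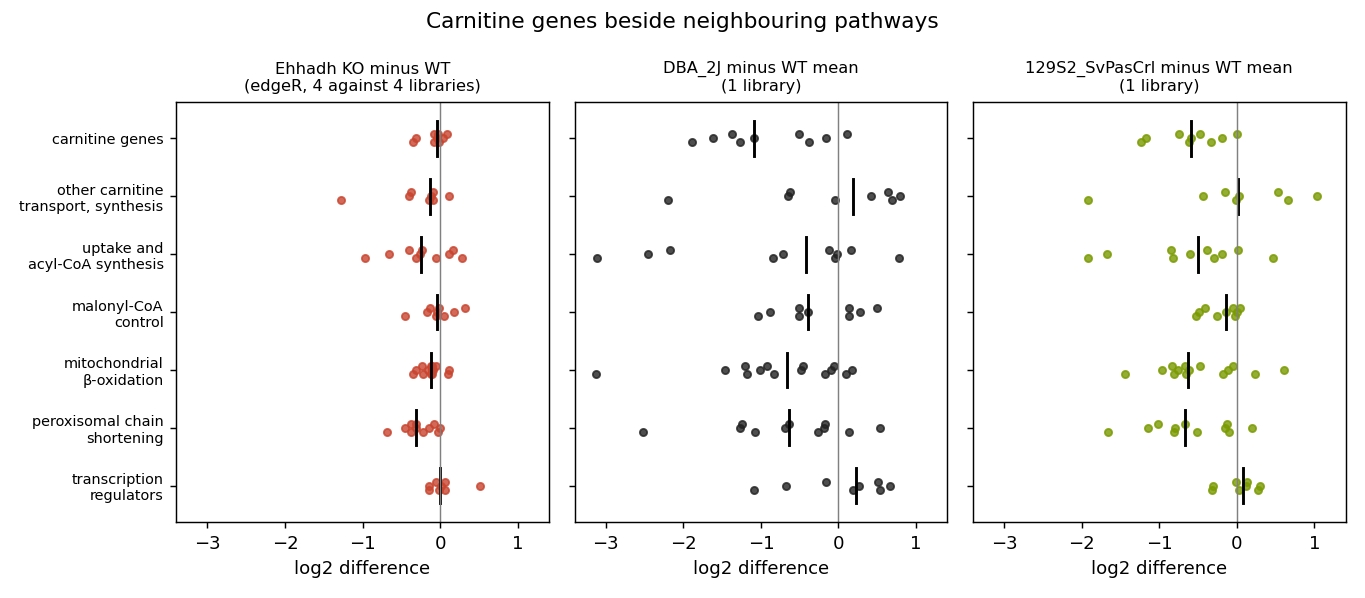
Log2 difference of each tested gene in the carnitine list and 6 neighbouring lists for KO against WT (left), DBA_2J against the WT mean (centre) and 129S2_SvPasCrl against the WT mean (right); black bars are list medians. The carnitine genes lie near 0 in KO (median −0.04) and at medians of −1.08 and −0.59 in the strains.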

How the data were processed

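Polyadenylated kidney RNA was read as single-end libraries, per the labels' protocols. Per the file headers, featureCounts 1.5.2 made the raw counts per gene over exons of the UCSC mm10 annotation, with primary alignments only, no strand option, and a read given to each gene it overlaps; STAR and edgeR are named in the submitters' processing notes. The deposited table of log2 values (13645 genes, holding 9 of the members) was used only to see which members it lists.

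Groups came from the labels, and replicates are numbered by accession and are not paired. No pair of replicates agreed within counting error (lowest chi-square per degree of freedom 10.9). The labels give 4 animals per genotype. Genotype was tested over the C57BL/6N libraries (8) by glmQLFit and glmQLFTest of edgeR 4.0.16 under R 4.3.3, after filterByExpr and TMM, across all genes and adjusted over 15547, after a check of the code on simulated data. SE is the log2 fold change divided by the square root of F. CPM and RPKM use TMM over 10 libraries; at 1 CPM the shallowest library has about 19.79 counts. Strain libraries were compared on log2 CPM (prior count 2) with no test. Alternatives were DESeq2 1.42.0, other scaling, no filter, 1 library left out, title form, thinning and a fit of 10 libraries. Named genes are the members and, of the neighbouring pathways, up to 4 called genes by smallest p (2 where none was called); marker lists are given as sums, and since no member was called, none was matched to genes of similar pattern. Slc22a4, Slc22a21, P4ha2, Chkb, ChkbCpt1b, Acsl1, Aldh9a1, Uchl1, Syt1, Stmn2, Nefl, Spp1, Clu, Pdzk1, Ppara, Ucp1 and Acaa2 were chosen after their values were seen. The members and lists were chosen with earlier results of these data known.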

Additional observations from a re-analysis of the deposited data

Results flagged for a closer look

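In 18 groups of 4 libraries checked (KO and WT for 9 members), 4 had a library whose gap to its nearest neighbour exceeded Dixon's 95% value of the group's range, where chance gives about 1 in 20 groups. Slc22a5 had such a library in both genotypes, KO replicate 4 at 610 CPM (others 277 to 309) and WT replicate 4 at 459 CPM (others 342 to 360). Both of these animals have titles with a leading E. Crot was far above its group in WT replicate 1 at 831 CPM, which is the shallowest library, at 19.79 M counts. Slc25a20 was far below its group in KO replicate 3 at 85.9 CPM, the library that also read lowest of the C57BL/6N libraries for Cpt1b.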

How the results depend on the processing

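With DESeq2, other scaling, no filter, title form as a term, thinning to the smallest total or 10 libraries in the fit, 0 members were called. With 1 library left out, 0 to 1 members were called (Slc22a5, without KO replicate 4), 1005 to 1638 of all genes (1710 with all 8; 1005 without KO replicate 1, 1068 without KO replicate 2, 1006 without WT replicate 3) and 6 to 12 genes of the other lists (6 without KO replicate 1 or WT replicate 1; 18 with DESeq2). Signs turned for members near 0: Slc25a20 (0.0052 with library totals alone; −0.0692 to 0.0714 with 1 library left out), Cpt1b (−0.105 to 0.0703), Crot (−0.135 to 0.0255) and Slc22a5 (−0.37 to 0.0906); the cause was not tested. With library totals alone all genes were called 1202 higher and 587 lower (982 and 728 with TMM). In the strains 7 member values lay at −1 or lower under every alternative run. Bbox1 and Cpt1c were read by few counts, and their intervals reach −0.87 and −0.79. Slc22a5, at 7088 to 32093 counts per C57BL/6N library, also had a wide interval, from −0.51 to 0.46. The parts of depth and of variation between animals in these widths were not separated.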
